A study of Bos taurus with 8 samples.

Results

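The genes described here encode the enzymes of glycolysis, the PFKFB regulators of phosphofructokinase, the proteins that make and export lactate, and the enzymes of the pentose phosphate pathway. The list holds 32 genes. A gene was found by the symbol that the array platform gives for a transcript cluster, the set of probes that reports 1 transcript. For 30 of the genes a cluster carried that symbol alone. For the other 2, *PGAM1* and *LDHB*, the only cluster also carried the names of pseudogenes, and these are given separately. The series holds 24415 transcript clusters in all.

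Total RNA of bovine granulosa cells (GC) was hybridised to 8 Affymetrix Bovine Gene ST arrays, 4 from cells held at low oxygen (LOL, 1% O2) and 4 from cells held at normal oxygen (NOL, 21% O2). Granulosa cells line the inner wall of the ovarian follicle, which has no blood vessels, and make estradiol under the influence of FSH. The cells came from small to medium follicles of abattoir ovaries, were cryopreserved, thawed and plated on collagen, and grew in serum-free α-MEM with FSH, IGF-1 and androstenedione. All of this was shared by both groups, and only the oxygen level differed, from day 6 to day 8 of culture. Whether the 4 samples of a group were separate cultures or animals is not given in the sources used here, so the spread behind the p-values is that between samples and may be technical only. The arrays report RNA of the whole culture, so fewer cells of a type and less RNA per cell cannot be told apart.

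Glycolysis splits glucose into pyruvate in the cytosol and yields ATP without oxygen. When pyruvate is not burnt in mitochondria, lactate dehydrogenase reduces it to lactate, which regenerates the NAD+ that glycolysis needs, and monocarboxylate transporters carry the lactate out of the cell. The pentose phosphate pathway branches off at glucose 6-phosphate: its oxidative arm makes NADPH, and its reversible non-oxidative arm exchanges sugars with glycolysis and supplies ribose 5-phosphate for nucleotides. Granulosa cells are known as glycolytic cells that pass pyruvate and lactate to the oocyte. In mammalian cells many glycolytic genes are known targets of the hypoxia-inducible factors.

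Array medians lay between 4.12 and 4.18 on the log2 scale at LOL and between 4.06 and 4.08 at NOL, and arrays correlated at r = 0.993 to 0.996 within a group against 0.973 to 0.978 between the groups. Lower quartiles lay between 2.42 and 2.52 at LOL and between 2.36 and 2.38 at NOL, so dim clusters were slightly higher at LOL in general. The granulosa cell label was checked against 12 marker genes, whose group means lay between 4.68 and 11.44, above every array median. *FSHR*, the FSH receptor, averaged 6.92 at LOL and 8.64 at NOL. Of these 12 markers 1 rose and 9 fell at LOL, and their summed linear signal was 3917 to 4438 at LOL and 7549 to 7879 at NOL. All 7 fibroblast and smooth muscle markers with a cluster of their own rose, with sums of 1148 to 1251 at LOL and 542 to 680 at NOL. Of 5 theca markers only *INSL3* rose. It averaged 8.48 at LOL and 7.44 at NOL, a 2.05-fold rise (adjusted p = 1.17e-05 in limma). *CYP17A1*, which defines steroidogenic theca cells, averaged 3.35 at LOL and 3.38 at NOL. The theca sums were 513 to 533 at LOL and 302 to 361 at NOL. *PTCH1* and *NR2F2* of the theca list lay above every array median. They averaged 5.80 and 6.49 at LOL and 5.87 and 6.43 at NOL, without a difference that passed. Endothelial markers summed to 65 to 81 at LOL and 64 to 67 at NOL with 2 of 8 higher, and leukocyte markers to 88 to 104 at LOL and 78 to 86 at NOL with 3 of 7 higher. Over all clusters 20.5% were higher and 20.5% were lower, at the same adjusted p under 0.05 in limma. *PECAM1* and *PTPRC*, defining markers of those cell types, averaged 2.57 and 1.87 at LOL and 2.43 and 1.91 at NOL, below every array median. Other markers of the same lists lay above every array median. These were *VWF* (4.41 at LOL, 4.31 at NOL), *CD14* (4.48 and 4.37) and *CD68* (4.84 and 4.53), of which *CD68* was among those that rose. Whether such cells were present was not tested. The part of these marker differences in the results below was not tested.

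At each measured step between glucose and lactate at least 1 cluster rose at LOL, while the genes of the pentose phosphate pathway moved in both directions and none of them by 2-fold. For phosphoglycerate mutase the only cluster was the one shared with pseudogenes. For lactate dehydrogenase only *LDHA* rose, with signals near the array medians, and the shared *LDHB* cluster did not pass. Of the 30 genes with a cluster of their own, 20 were higher at LOL and 6 were lower with an adjusted p under 0.05 in limma, and 4 did not pass. Over all clusters 20.5% were higher and 20.5% were lower. The median difference of the 30 genes was 0.34 on the log2 scale, against 0.06 over all clusters. A gene was called differentially expressed where it also differed by more than 2-fold, which held for 7 genes that rose (*HK2*, *PFKL*, *PFKP*, *PFKFB3*, *PGK1*, *ENO2* and *SLC16A3*), where 2.22% of all clusters did so, and for 1 gene that fell (*PFKFB4*), where 2.65% of all clusters did so. The 4 LOL arrays did not overlap the 4 NOL arrays in 28 of the 30 genes, against 39.4% of all clusters, and *ENO3* and *TIGAR* were the genes that overlapped.

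**Figure D1:**
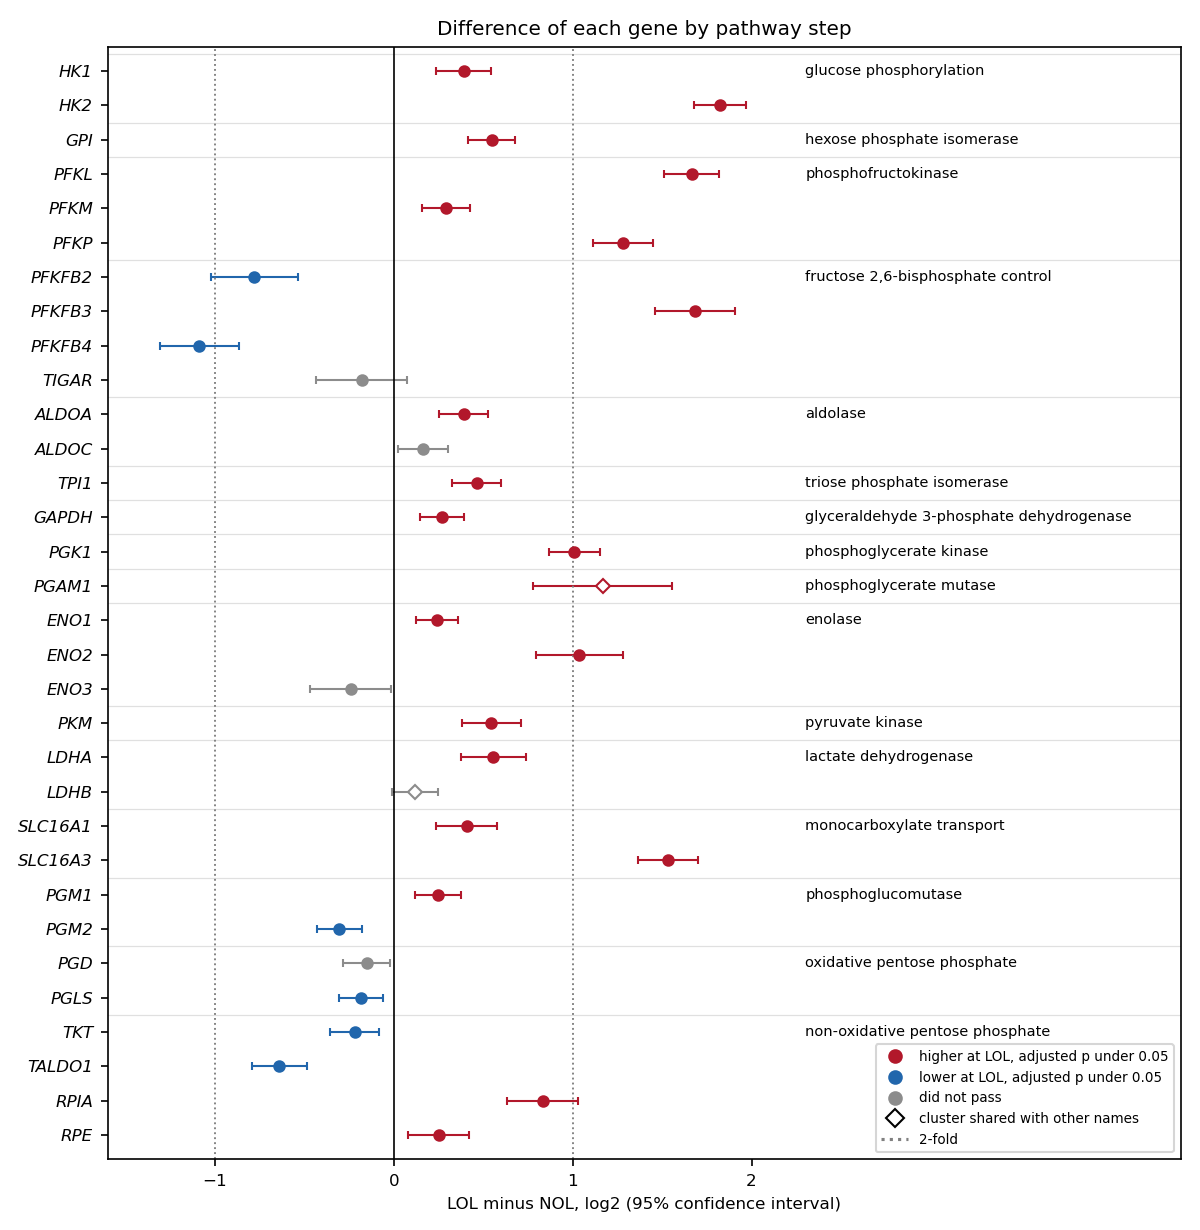
Difference between LOL and NOL (LOL minus NOL, log2 scale, horizontal axis) of each gene, ordered by pathway step from top to bottom, with the 95% confidence interval from limma over 4 arrays a group; open diamonds are clusters shared with pseudogenes and dotted lines mark 2-fold. The genes from glucose to pyruvate lie mostly right of 0, from 0.24 for *ENO1* to 1.82 for *HK2* among those that passed, while *PFKFB2*, *PFKFB4* and *TALDO1* lie left of it.

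Glucose is trapped in the cell by hexokinase, and the 2 hexokinase genes rose by unequal amounts. *HK2* (cluster 12708674), the isoform known for its regulation in insulin-sensitive and tumour tissue, had log2 signals of 9.55, 9.48, 9.46 and 9.39 at LOL, against 7.63, 7.63, 7.57 and 7.76 at NOL. The LOL arrays lay far above all NOL arrays and the difference of 1.82 (SE 0.065), a 3.54-fold rise, was the largest among the 30 genes (adjusted p = 4.7e-08). *HK1*, the isoform found in most tissues, averaged 9.45 ± 0.06 at LOL and 9.06 ± 0.11 at NOL (SD, n = 4 each), a rise of 0.39 (adjusted p = 0.00132). A second cluster named *HK1* also rose, by 0.54 (adjusted p = 0.000688). *GPI*, which turns glucose 6-phosphate into fructose 6-phosphate, lay between 10.53 and 10.62 at LOL and between 9.95 and 10.11 at NOL, with a difference of 0.55 (adjusted p = 4.42e-05).

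Phosphofructokinase catalyses the committed step of glycolysis, and its subunits are encoded by the liver-type gene *PFKL*, the muscle-type gene *PFKM* and the platelet-type gene *PFKP*. *PFKL* (cluster 12679509) had log2 signals of 9.40, 9.34, 9.40 and 9.32 at LOL, against 7.56, 7.70, 7.71 and 7.83 at NOL. The groups lay well apart, with a difference of 1.66 (SE 0.069, adjusted p = 1.13e-07), 3.17-fold. *PFKP* (cluster 12718657) had 8.43, 8.45, 8.40 and 8.50 at LOL, against 6.97, 7.20, 7.19 and 7.29 at NOL. It rose by 1.28 (SE 0.075, adjusted p = 8.13e-07), 2.43-fold, with NOL 1 the lowest array of both genes. *PFKM* rose too, but only by 0.29 (SE 0.06, adjusted p = 0.0031), with 5.98 to 6.06 at LOL and 5.63 to 5.81 at NOL.

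Fructose 2,6-bisphosphate is the strongest known activator of phosphofructokinase, and the genes that set its level moved apart more than those of any other step. It is made and removed by the bifunctional PFKFB enzymes, of which PFKFB3 has by far the higher kinase activity. *PFKFB3* (cluster 12718246) had log2 signals of 6.93, 6.81, 6.65 and 6.79 at LOL, against 4.91, 5.0, 5.29 and 5.24 at NOL. All LOL arrays were higher, by 1.69 (SE 0.099, adjusted p = 8.13e-07), 3.22-fold. *PFKFB4* (cluster 12796448), an isoform known from testis and from hypoxic tumour cells in man and mouse, had 5.50, 5.52, 5.66 and 5.49 at LOL, against 6.34, 6.67, 6.78 and 6.73 at NOL. It fell by 1.09 (SE 0.098, adjusted p = 1.25e-05), opposite in direction to *PFKFB3*, and was the only gene of the 30 called lower. Its interval of -1.31 to -0.87 spans the 2-fold limit. *PFKFB2* (cluster 12734691), the isoform best known from heart, had 4.67, 4.36, 4.28 and 4.66 at LOL, against 5.20, 5.38, 5.12 and 5.39 at NOL. It fell by 0.78 (SE 0.108, adjusted p = 0.00024), which is 1.72-fold lower and under the fold limit. *TIGAR*, known in human cells to remove fructose 2,6-bisphosphate, lay between 5.18 and 5.68 at LOL and between 5.48 and 5.67 at NOL. The groups overlapped, and its difference of -0.18 had an interval of -0.44 to 0.08 (adjusted p = 0.24).

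**Figure D2:**
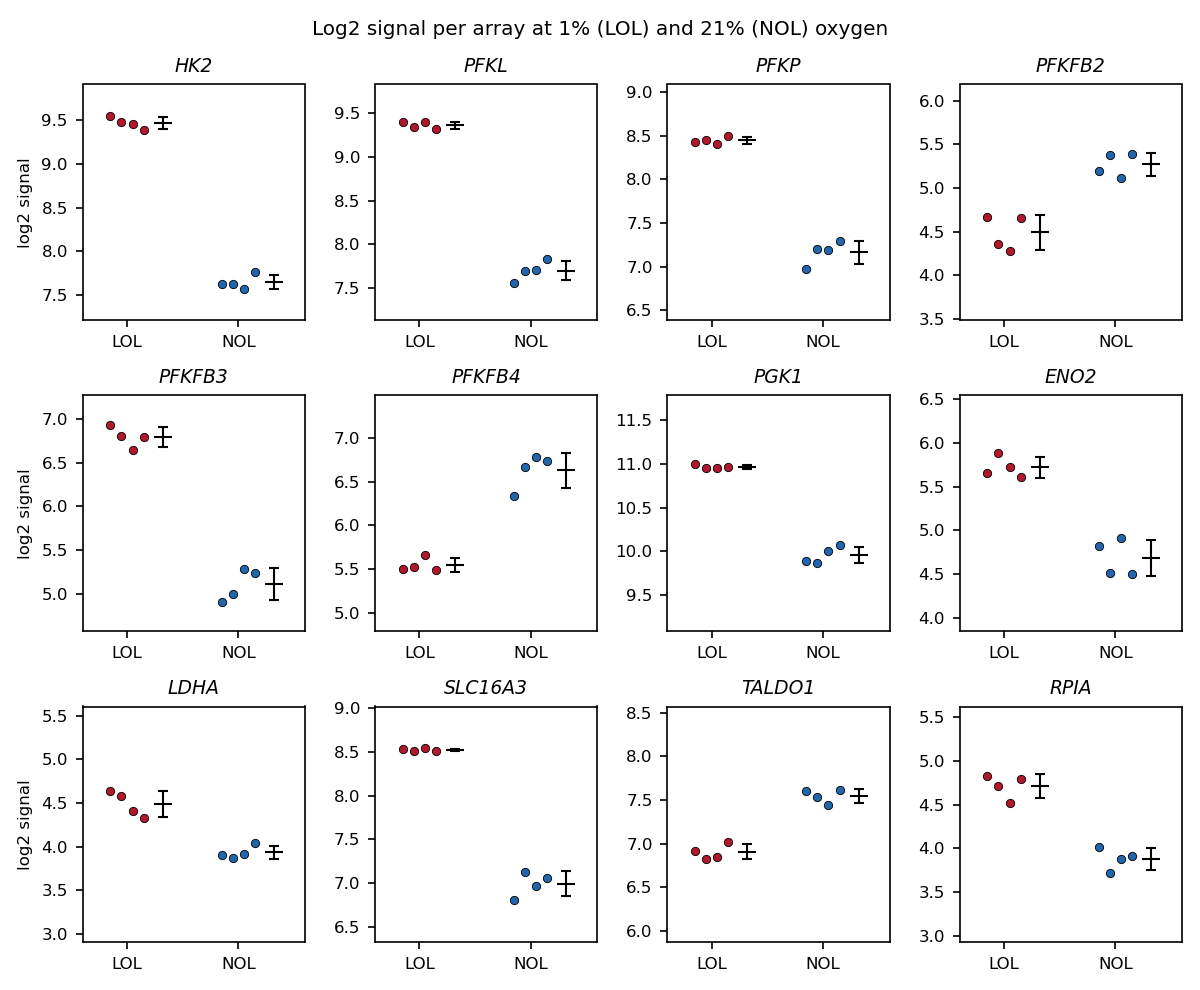
Log2 signal (vertical axis, each panel spanning the same range of log2 units) of 12 genes in each array, with LOL arrays 1 to 4 left and NOL arrays 1 to 4 right, and the mean ± SD of 4 arrays as a bar beside them. LOL arrays lie above all NOL arrays in 9 panels, and below them in the panels of *PFKFB2*, *PFKFB4* and *TALDO1*.

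From fructose 1,6-bisphosphate to pyruvate the pathway yields ATP and NADH, and these genes included the brightest ones of the list, most of which rose by small amounts. The highest signal of an array was 12.36 to 12.42. Whether signals near it respond less to a change in RNA was not tested. *ALDOA*, the main aldolase of muscle and most other cells, lay between 11.35 and 11.37 at LOL and between 10.86 and 11.05 at NOL, a rise of 0.39 (adjusted p = 0.000603). *TPI1*, which interconverts the triose phosphates, rose by 0.46 (adjusted p = 0.00016). *GAPDH*, which oxidises glyceraldehyde 3-phosphate and is widely used as a reference gene, had 11.95, 11.84, 11.89 and 11.93 at LOL, against 11.64, 11.65, 11.63 and 11.61 at NOL. The LOL arrays did not overlap the NOL arrays, and the rise of 0.27 passed (SE 0.055, adjusted p = 0.00277). A second *GAPDH* cluster, without a gene identifier in the platform table and with signals under 3.2 in every array, rose by 0.63 (adjusted p = 0.0124). *ALDOC*, the brain-type aldolase, averaged 8.12 ± 0.04 at LOL and 7.96 ± 0.08 at NOL and did not pass (difference 0.16, interval 0.02 to 0.30, adjusted p = 0.0618).

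*PGK1* and *ENO2* were the called genes of this stretch, both just over 2-fold. *PGK1* (cluster 12907613), whose product makes the first ATP of the payoff phase, had log2 signals of 11.00, 10.95, 10.95 and 10.97 at LOL, against 9.89, 9.87, 10.01 and 10.07 at NOL. Its difference was 1.01 (SE 0.064, adjusted p = 1.24e-06), 2.01-fold, with an interval of 0.86 to 1.15 that spans the 2-fold limit. *ENO2* (cluster 12866747), the enolase known from neurons, had 5.66, 5.89, 5.73 and 5.61 at LOL, against 4.82, 4.51, 4.91 and 4.50 at NOL. It rose by 1.04 (SE 0.108, adjusted p = 3.44e-05), 2.05-fold, with an interval of 0.795 to 1.28 that also spans the 2-fold limit. Its NOL arrays fell into a higher pair (NOL 1 and NOL 3) and a lower pair. *PGK1* fell just under 2-fold with quantile normalization (0.97), with median centring (0.94) and without NOL 1 (0.98), NOL 2 (0.98) or LOL 1 (0.997), and *ENO2* with median centring (0.97) and without NOL 2 (0.98), NOL 4 (0.98) or LOL 2 (0.98), while both kept an adjusted p under 0.05.

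*ENO1*, the enolase of most tissues, rose by 0.24 (adjusted p = 0.0047), with 11.53 to 11.60 at LOL and 11.29 to 11.34 at NOL. *ENO3*, the muscle enolase, averaged 4.12 ± 0.10 at LOL and 4.36 ± 0.20 at NOL and overlapped between the groups (difference -0.24, interval -0.47 to -0.01, adjusted p = 0.0867). *PKM*, the pyruvate kinase of muscle and proliferating cells, lay between 10.81 and 10.90 at LOL and between 10.15 and 10.46 at NOL, a rise of 0.55 (adjusted p = 0.000207). The array reports *PKM* as a whole, so its splice forms M1 and M2 were not told apart. Between glucose and pyruvate, 13 of 15 genes with a cluster of their own rose and none fell in limma, where *ENO3* alone was lower at an unadjusted p under 0.05. Their median difference was 0.46, against 0.06 over all clusters, of which 20.5% rose and 20.5% fell.

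Phosphoglycerate mutase was measured only by a cluster that carries the names *PGAM1*, *LOC615610* and *LOC614423*. This shared cluster had 7.33, 7.19, 7.15 and 7.04 at LOL, against 6.21, 5.51, 6.44 and 5.88 at NOL. It rose by 1.17 (SE 0.174, adjusted p = 0.000392), 2.25-fold, with a wider spread at NOL (SD 0.41) than at LOL (SD 0.12), and how much of it comes from *PGAM1* cannot be told apart.

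All 3 genes for lactate formation and transport with a cluster of their own rose, where 20.5% of all clusters did so. *SLC16A3* (cluster 12769290) encodes MCT4, the monocarboxylate transporter known for lactate export from glycolytic cells. It had log2 signals of 8.53, 8.51, 8.54 and 8.51 at LOL, against 6.80, 7.13, 6.97 and 7.06 at NOL. The LOL arrays were nearly alike, and the rise of 1.53 (SE 0.076, adjusted p = 2.96e-07), 2.89-fold, was the fourth largest of the 30 genes. *SLC16A1*, which encodes the widely expressed MCT1, rose by 0.41 (adjusted p = 0.00175), with 7.64 to 7.87 at LOL and 7.24 to 7.47 at NOL. *LDHA* (cluster 12832629), the lactate dehydrogenase subunit that favours lactate formation, had 4.64, 4.58, 4.41 and 4.33 at LOL, against 3.91, 3.87, 3.92 and 4.04 at NOL. These signals lay above the array median in every LOL array and below it in every NOL array. The difference was 0.56 (SE 0.081, adjusted p = 0.000355), and no fold is given because a signal this low can be close to background, which the values do not show. *LDHB* was measured only by a cluster shared with the pseudogene *LOC613595*, which had 9.37, 9.31, 9.33 and 9.42 at LOL, against 9.24, 9.27, 9.17 and 9.27 at NOL. Its difference of 0.12 had an interval of -0.01 to 0.25 and did not pass (adjusted p = 0.123).

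Isozymes of a step were compared by the ratio of their signals within each array, a log2 difference. Its own size has no meaning between probe sets, and its change between the groups shows only that the signals changed by unequal amounts. Whether the RNA did so, or probes of unlike signal level responded unequally, was not tested. Of 12 pairs, 11 changed their ratio without overlap between LOL and NOL arrays, each with p = 0.0286 in a two-sided exact permutation test (adjusted p = 0.0312 over the 12 pairs), where 0.0286 is the smallest p that 4 arrays against 4 allow. Singly, 28 of the 30 genes did not overlap either, against 39.4% of all clusters. The share among ratios of other gene pairs was not measured, so the count of 11 has no base rate beside it. The largest changes lay among the PFKFB genes. The log2 ratio of *PFKFB4* over *PFKFB3* averaged -1.25 ± 0.19 at LOL and 1.52 ± 0.10 at NOL, a change of -2.77, and the ratio of *PFKFB3* over *PFKFB2* rose by 2.46, 5.52-fold. The fall of *PFKFB4* relative to *PFKFB2* was -0.31 and overlapped between the groups (exact permutation p = 0.2). *HK2* rose 2.70-fold relative to *HK1* (1.43 on the log2 scale), and *PFKL* rose 2.59-fold and *PFKP* 1.99-fold relative to *PFKM*. Relative to *SLC16A1*, *SLC16A3* rose 2.18-fold (1.13 on the log2 scale). *ENO2* rose by 0.80 relative to *ENO1*, while *ENO3* fell by 0.48 relative to it. *ALDOC* fell by 0.23 relative to *ALDOA*, and *LDHA* rose by 0.43 relative to the shared *LDHB* cluster. Leaving out 1 array, the *LDHA* ratio had an adjusted p of 0.0623 without any single NOL array, with changes of 0.40 to 0.46, and so had the *ENO3* ratio without NOL 1 (-0.38), LOL 1 (-0.45) or LOL 3 (-0.44).

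**Figure D3:**
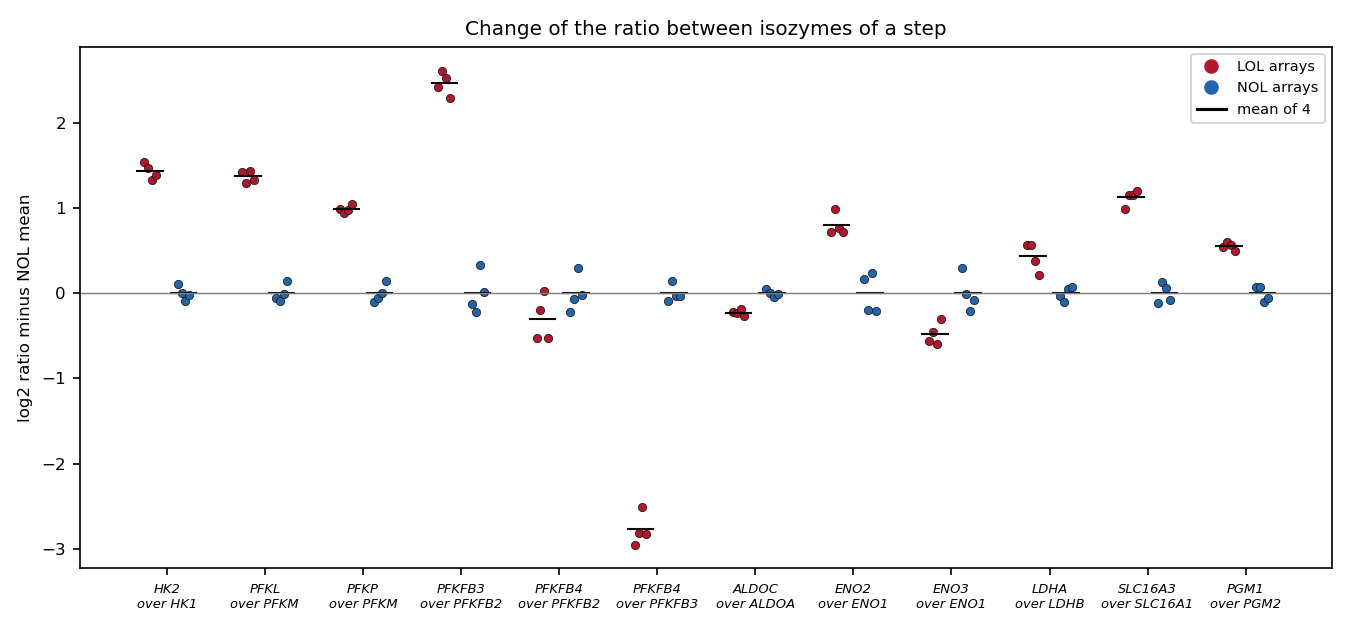
Log2 ratio between the signals of 2 genes of the same step in each array, minus the mean of the 4 NOL arrays (vertical axis), for 12 pairs, with LOL arrays left and NOL arrays right of each pair and a line at the mean of 4. LOL points stand apart from NOL points in 11 pairs, most of all for *PFKFB4* over *PFKFB3* (-2.77) and *PFKFB3* over *PFKFB2* (2.46).

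Phosphoglucomutase links glucose 6-phosphate with glucose 1-phosphate, the precursor of glycogen, and its 2 genes moved in opposite directions. *PGM1*, the main form of most tissues, lay between 8.19 and 8.28 at LOL and between 7.90 and 8.04 at NOL, a rise of 0.25 (adjusted p = 0.00685). *PGM2*, whose product also acts on pentose phosphates, lay between 8.57 and 8.64 at LOL and between 8.85 and 8.98 at NOL, a fall of 0.31 (adjusted p = 0.00166). The ratio of *PGM1* over *PGM2* rose by 0.55, 1.47-fold, and was among the 11 pairs above.

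In the pentose phosphate pathway 2 of 6 genes rose and 3 fell, none of them by 2-fold, and their median difference was -0.17. Of all clusters 20.5% rose and 20.5% fell. Of the oxidative arm, *PGLS*, which opens the lactone ring of 6-phosphogluconolactone, averaged 7.62 ± 0.02 at LOL and 7.81 ± 0.05 at NOL and fell by 0.18 (SE 0.055, adjusted p = 0.0217). That fall did not pass without NOL 2 (-0.17, adjusted p = 0.0574), NOL 4 (-0.17, 0.0573), LOL 1 (-0.18, 0.0504) or LOL 4 (-0.18, 0.0501). *PGD*, which makes NADPH from 6-phosphogluconate, lay between 9.15 and 9.31 at LOL and between 9.35 and 9.43 at NOL. Its difference of -0.15 had an interval of -0.29 to -0.02 and did not pass (adjusted p = 0.065).

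The non-oxidative arm was split by direction. *TALDO1* (cluster 12833635) encodes transaldolase, which moves a 3-carbon unit between sugar phosphates. It had log2 signals of 6.92, 6.83, 6.85 and 7.02 at LOL, against 7.60, 7.53, 7.44 and 7.61 at NOL. All LOL arrays were lower, by 0.64 (SE 0.068, adjusted p = 3.92e-05), 1.56-fold. *TKT*, the transketolase that moves 2-carbon units, fell by 0.22 (adjusted p = 0.0165), with 7.56 to 7.76 at LOL and 7.86 to 7.90 at NOL.

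Against these, *RPIA* (cluster 12707778), which interconverts ribulose 5-phosphate and ribose 5-phosphate, had 4.83, 4.71, 4.52 and 4.80 at LOL, against 4.02, 3.72, 3.88 and 3.91 at NOL. It rose by 0.83 (SE 0.089, adjusted p = 4.06e-05), and no fold is given since its NOL mean lay below 4. *RPE*, which epimerises ribulose 5-phosphate to xylulose 5-phosphate, averaged 6.57 ± 0.12 at LOL and 6.32 ± 0.09 at NOL and rose by 0.25 (adjusted p = 0.0241). The rise of *RPE* did not pass with median centring (0.18, adjusted p = 0.113), nor without NOL 1 (0.23, 0.0612), NOL 2 (0.22, 0.0646), LOL 1 (0.24, 0.0566) or LOL 4 (0.20, 0.063).

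Neighbouring genes of the same pathways were read from 4 further lists. Of the 30 genes 66.7% rose, against 15.4% to 28.6% of the genes of these lists, a difference that was not tested. The 30 genes were brighter, with a median signal of 8.18 at LOL and 7.67 at NOL. The medians of these lists were 3.89 to 7.38 at LOL and 3.73 to 6.93 at NOL. The part of signal level in the difference was not tested. Over all clusters 20.5% rose and 20.5% fell. Of 26 other genes of glycolysis, gluconeogenesis and lactate handling with a cluster of their own, 4 rose, 6 fell and none was called, with a median signal of 3.89 at LOL and 3.73 at NOL. *BSG*, the chaperone of the monocarboxylate transporters, averaged 10.51 at LOL and 10.51 at NOL (difference 0.01, adjusted p = 0.955), and *PGP*, a phosphatase of glycolytic by-products, differed by 0.13 (adjusted p = 0.111). A second cluster, which carries the names *MIR2382* and *PGP*, fell by 0.35 (adjusted p = 0.00265 in limma), so the 2 clusters did not go the same way.

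Of 11 other pentose phosphate and nucleotide sugar genes, 2 rose (18.2%) and 4 fell (36.4%), against 20.5% of all clusters in each direction. *PRPS2*, which activates ribose 5-phosphate for nucleotide synthesis, had 5.62, 5.49, 5.30 and 5.34 at LOL, against 7.78, 7.67, 7.26 and 7.45 at NOL. It fell by 2.10 (SE 0.119, adjusted p = 6.5e-07), 4.29-fold, and its second cluster fell by 1.08, so *RPIA* and *PRPS2*, which act 1 after the other, went in opposite directions. *DERA*, which splits deoxyribose phosphate (difference -0.13, adjusted p = 0.0898), and *PRPSAP1*, which binds the PRPS enzymes (difference 0.04, adjusted p = 0.675), did not pass.

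Most side branches of glycolysis had lower signals at LOL, with 13 of 20 genes lower (65%) and 5 higher (25%). Over all clusters each direction held 20.5%, and the median difference of the list was -0.36. *GFPT2*, which diverts fructose 6-phosphate into hexosamines, had 7.15, 7.10, 7.22 and 7.12 at LOL, against 8.50, 8.48, 8.61 and 8.66 at NOL, a 2.67-fold fall (adjusted p = 1.86e-07). The other hexosamine genes of the list, chosen for mention after their values were seen, fell as well, *GFPT1* by 0.72, *GNPNAT1* by 0.56 and *UAP1* by 0.23. *PSAT1*, of serine synthesis from 3-phosphoglycerate, fell 2.27-fold (adjusted p = 0.000148), with 7.64 to 7.81 at LOL and 8.58 to 9.34 at NOL. Against the trend of the list, *MPI*, which interconverts fructose 6-phosphate and mannose 6-phosphate, had 8.12, 8.02, 8.07 and 8.04 at LOL, against 5.77, 5.95, 6.25 and 6.27 at NOL, a 4.01-fold rise (adjusted p = 5.23e-07). *HAGH*, the glyoxalase that completes the removal of methylglyoxal, a by-product of the triose phosphates, rose 3.13-fold, with 8.21 to 8.31 at LOL and 6.56 to 6.66 at NOL (adjusted p = 3.84e-08). The other glyoxalase of the list, *GLO1*, also named after its values were seen, went the opposite way and fell by 0.885 (adjusted p = 6.7e-06 in limma). *KHK*, the fructokinase (difference -0.12, adjusted p = 0.233), and *GPD1*, a glycerol 3-phosphate dehydrogenase (difference 0.12, adjusted p = 0.217), did not pass.

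Where pyruvate enters mitochondria, 4 of 14 genes rose (28.6%) and 5 fell (35.7%), with a median difference of -0.12, against 20.5% of all clusters in each direction. *PC*, the pyruvate carboxylase, lay between 7.13 and 7.26 at LOL and between 5.85 and 6.18 at NOL, a 2.25-fold rise (adjusted p = 1.97e-06). *PDK1*, a kinase known to switch off pyruvate dehydrogenase and named here after its values were seen, rose by 0.86 (adjusted p = 1.99e-06). Of the other such kinases, *PDK4* fell by 0.38 (adjusted p = 0.0012) and *PDK2* did not pass (difference -0.22, adjusted p = 0.0912), both also named after their values were seen. *PDK4* averaged 3.22 at LOL and 3.60 at NOL, below every array median, and such a signal can be close to background. *PDK3*, the remaining kinase (difference -0.06, adjusted p = 0.542), and *PDHB*, a subunit of pyruvate dehydrogenase (difference -0.01, adjusted p = 0.925), did not pass.

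**Figure D4:**
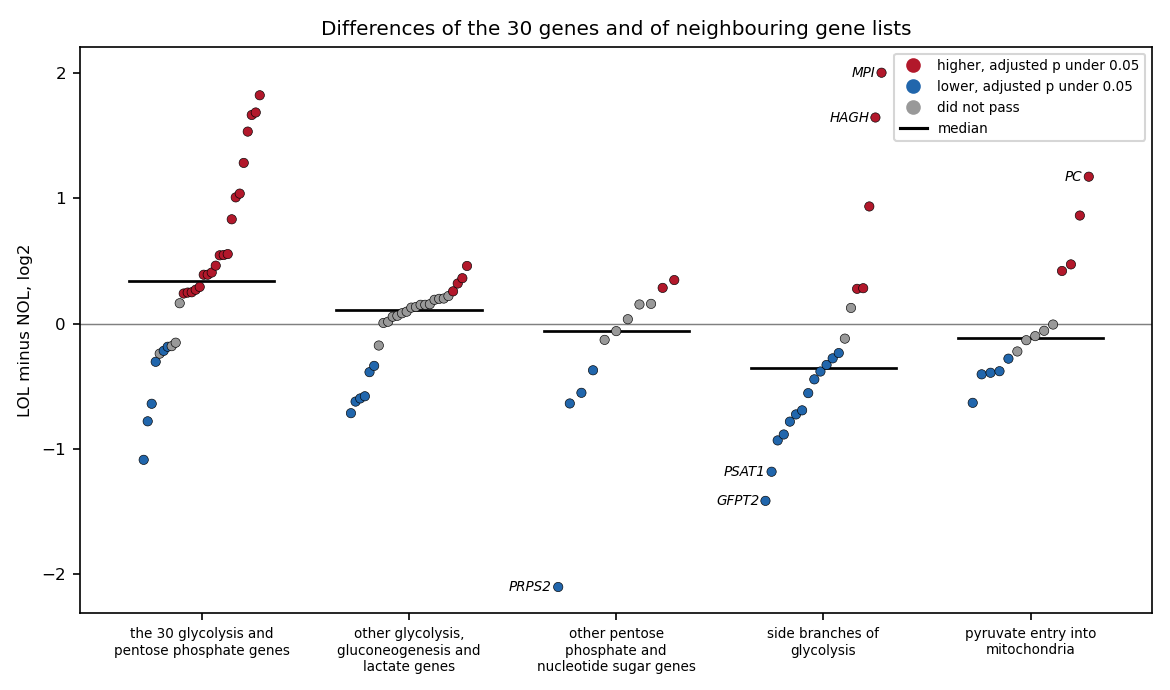
Differences between LOL and NOL (LOL minus NOL, log2 scale, vertical axis) of the 30 genes and of the genes of 4 neighbouring lists, 1 point per gene sorted within its list, with a line at the median and the called genes of the neighbouring lists named. The median was 0.34 for the 30 genes and -0.36 for the side branches of glycolysis, and *PRPS2* (-2.10) and *MPI*, which rose 4.01-fold, lie at the ends.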

How the data were processed

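Total RNA from 4 LOL and 4 NOL samples was measured on 1-colour Affymetrix Bovine Gene ST arrays, 1 per sample, and groups follow the oxygen level given for each sample. The deposited log2 values were made by the authors through robust multichip averaging (RMA, no version given), which corrects background, normalizes between arrays and summarises probes. No further normalization or filter was applied, and probe-level files were not used here. Arrays have no sequencing depth, and the number of arrays limits the precision.

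All 24415 clusters were fitted with limma 3.58.1 in R 4.3.3 (2 groups, moderated variance, two-sided), with Benjamini-Hochberg adjustment over all clusters, after the fit had been tested on simulated data. Genes were called at an adjusted p under 0.05 and over 2-fold. Intervals are 95%. No fold is printed for genes with a group mean under 4. Symbols come from the platform table, which gives 1 symbol for 18550 clusters. Of several clusters the one with the highest mean was used. Isozyme ratios were compared with exact permutation tests.

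All listed genes are named. Of the neighbouring lists, called genes are named, with the up to 2 genes of highest mean signal among those that did not pass. Members and lists were chosen with earlier results of these data known. Alternatives were quantile normalization, median centring, a filter on dim clusters (mean log2 signal under 4 in both groups), analysis of variance without moderation (the study's methods name an analysis of variance and do not give its variance model), a mean-variance trend, the replicate number as a block, the mean of a gene's clusters, a 1.5-fold limit and leaving out each array.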

Additional observations from a re-analysis of the deposited data

Results flagged for a closer look

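In 6 of 92 groups of 4 arrays, those of the 46 genes named by rule at LOL and at NOL, 1 array lay apart from the rest: its gap to the nearest array, as a share of the group's whole range, exceeded Dixon's 95% critical value for 4 samples. Chance gives this in about 5% of groups. Among the listed genes it was *HK1* in LOL 3, at 9.54 against 9.42 to 9.43 in the other LOL arrays (gap share 0.917). NOL 1 was the low array in 3 neighbouring genes: *HAGH* at 6.56 against 6.65 to 6.66 (0.9), *BSG* at 10.41 against 10.53 to 10.55 (0.857) and *DERA* at 7.08 against 7.15 to 7.16 (0.875). *GPD1* was low in LOL 1, at 2.98 against 3.23 to 3.28 (0.833), and *PDHB* in NOL 2, at 8.00 against 8.08 to 8.09 (0.889).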

How the results depend on the processing

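The 15 alternatives that kept the 2-fold limit gave 19 to 21 genes higher and 5 to 8 lower, against 20 and 6, and 5 to 7 called higher, against 7. Leaving out each array in turn gave 19 to 20 higher, 5 to 7 lower, 5 to 7 called higher and 9 to 11 isozyme ratios past the threshold. With a 1.5-fold limit 8 genes were called higher and 3 genes were called lower (*PFKFB4*, *PFKFB2* and *TALDO1*), against 7 and 1. Of the other glycolysis genes 2 rose with dim clusters left out, against 4. Of the other pentose phosphate genes 0 rose with quantile normalization, with median centring or with analysis of variance without moderation, against 2. The cause was not tested. *ALDOC*, *ENO3*, *PGD*, *DERA*, *PGP*, *GPD1* and the shared *LDHB* cluster passed under some alternatives. No result changed direction past the threshold. The median difference over all clusters was 0.06, 0.022 with quantile normalization and -0.005 with median centring. The replicate numbers were not found to pair the arrays, since deviations of same-numbered arrays correlated at -0.027, 0.018, 0.114 and 0.025. With the replicate block, 20 genes were higher and 5 lower, and *PGLS* had an adjusted p of 0.0538. Under that replicate block 0 isozyme ratios passed, against 11, because 4 pairs allow no sign-flip p under 0.125. The values hold no measure of background, which limits *LDHA*, *RPIA*, *PDK4* and the dim second *GAPDH* cluster.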

Other observations

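Within the NOL group the listed genes had an uneven order of arrays. NOL 1 was the lowest NOL array in 14 of the 30 genes (46.7%), against 26.5% of all clusters, and NOL 4 was the highest in 15 (50%), against 23.9% of all clusters. The median deviation of the 30 genes from the NOL mean was -0.067 on the log2 scale in NOL 1 and 0.067 in NOL 4, against -0.002 and 0.003 over all clusters. In the LOL group the median deviations of the 30 genes lay between -0.015 and 0.009. The genes are not independent of each other, and no test was made.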
